A study of Mus musculus with 139 samples.

Results

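The heat shock proteins and chaperones of mouse cochlear hair cells were taken as the protein-coding genes whose symbols begin with the family names of HSP90 (Hsp90), HSP70 and HSP110 (Hspa and Hsph), the small heat shock proteins (Hspb and Cryab), the mitochondrial chaperonin (Hspd and Hspe), the J-domain proteins (Dnaja, Dnajb and Dnajc) and the cytosolic chaperonin (Cct and Tcp1). Dnajc5 and Dnajc5b were left out by the rule. It found 80 genes among the 55335 gene lines of the count table: 3 HSP90, 11 HSP70, 3 HSP110, 9 small heat shock proteins, 2 mitochondrial chaperonins, 4 DNAJA, 13 DNAJB, 26 DNAJC and 9 CCT. The rule used symbols and annotation only, but it was chosen with earlier results of these data known. Of the 80 genes, 62 reached 5 CPM (counts scaled to a group total of 1000000) in at least 1 of the 6 groups and 18 did not, and all 80 had at least 1 count in some cell.

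RNA of single hair cells was sequenced in 139 cells from mice at postnatal days 14 to 16. Inner hair cells (IHCs), the sensory cells that pass sound to the auditory nerve, came from the apex (34 cells), the middle (34 cells) and the base (19 cells) of the cochlea, and outer hair cells (OHCs), which amplify sound, from the apex (21 cells), the middle (23 cells) and the base (8 cells). The labels give no strain, genotype, sex or treatment for any group, and no label assigns a cell to an animal. Each group was therefore 1 sample: its counts were summed over its cells, differences between groups were described by their size, and no test between groups was made.

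Chaperones bind unfolded or partly folded proteins. HSP70 proteins bind and release clients in cycles of ATP hydrolysis that J-domain proteins start and HSP110 proteins reset by nucleotide exchange, HSP90 acts later on kinases, receptors and other clients, small heat shock proteins hold unfolding proteins without ATP, and the chaperonins fold proteins inside a closed ring. Under heat or other protein damage the factor HSF1 induces a set of them, Hspa1a and Hspa1b above all, while unfolded protein in the endoplasmic reticulum (ER) induces the ER set, and the inner ear is known to mount the HSF1 response after heat and noise.

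The promoters of both programmes are shown because some of their genes lay far apart in level. Per kilobase of exon, Hspa1a and Hspa1b had at most 1.92 CPM in any group. Hspa5 and Hsp90b1 of the ER had at least 9.17 CPM in every group. The programmes as a whole overlapped in level. Hsp90aa1, another HSF1 target, had at least 98.7 CPM per kilobase in every group, and Dnajc3 of the ER had 0.0387 in basal OHCs. RefSeq promoter windows (build GRCm38.p6, 250 bases before to 50 after a start site) were matched for 66 of the 80 genes and searched on both strands. No window was used for Hsp90aa1, Hsp90ab1, Hspa8, Hspa9, Hspa13, Hspb2, Cryab, Cct4, Dnajc2, Dnajc11, Dnajc12, Dnajc18, Dnajc22 and Dnajc30. The heat shock element was searched in its 3-unit form, GAA, any 2 bases, TTC, any 2 bases and GAA, and in the shorter 2-unit form GAANNTTC that each longer match contains, and the ER stress element as CCAAT, any 9 bases and CCACG. Capitals mark the fixed letters of each match, and every sequence is written 5′ to 3′ along the gene's strand.
Hspa1a: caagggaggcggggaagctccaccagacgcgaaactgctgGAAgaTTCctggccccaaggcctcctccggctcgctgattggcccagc
Hspa1b: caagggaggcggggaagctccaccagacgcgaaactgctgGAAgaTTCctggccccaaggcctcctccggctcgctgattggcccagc
Hspe1: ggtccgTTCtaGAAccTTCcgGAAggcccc
Dnajb6: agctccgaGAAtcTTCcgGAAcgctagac
Hsph1: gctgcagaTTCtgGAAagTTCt
Hspa5: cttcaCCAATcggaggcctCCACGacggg
Hsp90b1: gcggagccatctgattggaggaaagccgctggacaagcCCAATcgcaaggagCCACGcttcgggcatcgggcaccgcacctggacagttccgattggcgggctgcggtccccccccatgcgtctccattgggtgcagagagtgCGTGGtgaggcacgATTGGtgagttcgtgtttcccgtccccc
Dnajc3: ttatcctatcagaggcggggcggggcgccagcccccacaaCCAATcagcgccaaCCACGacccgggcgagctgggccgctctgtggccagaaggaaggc
The Hspa1a window was chr17:34972213-34972300 and the Hspa1b window chr17:34959295-34959382, both on the minus strand. The Hspe1 site (chr1:55088053-55088082) and the Dnajb6 site (chr5:29735844-29735872) were on the plus strand and the Hsph1 site (chr5:149636287-149636308) on the minus strand. Among the ER genes, Hspa5 (chr2:34772020-34772048) and Dnajc3 (chr14:118937787-118937885) were read on the plus strand and Hsp90b1 (chr10:86705510-86705694) on the minus strand. The sites of Hspe1, Dnajb6, Hsph1 and Hspa5 lie in bases that GENCODE M21 annotates as untranslated exon of at least 1 transcript, so only the site is printed for them.

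The longer heat shock element was found in 4 of the 66 genes, Dnajb6, Hspd1, Hspe1 and Hsph1, against 0.662% of the 27025 genes with a window, and the shorter one in 16 of 66 against 9.04%. The ER stress element was found in Dnajc3, Hsp90b1 and Hspa5, 3 of 66, against 0.137% of all genes. Hspd1 and Hspe1, the mitochondrial chaperonin and its cap, are read in opposite directions from start sites 95 or 216 bases apart, and the Hspe1 site printed above lies in a window of each. The Hspa1a and Hspa1b windows differed at 4 of 300 bases, and their printed stretches were the same letters. A match describes letters only, and whether a factor binds there was not measured.

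Total counts per cell ranged from 71027 to 13576942, and chaperone genes held between 0.743% (middle OHCs) and 1.3% (apical OHCs) of a group's counts. Markers of hair cells (Myo7a, Pou4f3, Myo6, Gfi1 and Espn) summed to at least 100 CPM in 31 of 34 apical, 31 of 34 middle and 17 of 19 basal IHCs and in 17 of 21 apical and 14 of 23 middle OHCs, but in only 1 of the 8 basal OHCs. The OHC marker Ocm was above the IHC marker Otof in 4 of 34 apical and 2 of 34 middle IHCs. Otof was above Ocm in 2 of 23 middle OHCs, and 1 basal OHC had neither. The part of these cells in the differences was not tested. In basal OHCs the summed level was 13072 CPM for neuron and glia markers, 19519 CPM for blood and immune markers and 20310.2 CPM for mesenchyme markers, against 1833 to 4276, 403 to 3417 and 425 to 4688 CPM over the other 5 groups, and no marker of those lists was at 0 in them. Where a count over the members includes basal OHCs, values from other choices of cells are given beside it, and the part of those markers in the results was not tested. The cell titles also carry numbers, 100 or less in 81 cells (the lower series) and above 100 in 58 cells (the higher series), whose meaning the sources do not give. In cells thinned to 582635 counts each, the median number of the 62 genes with a read was 19, 14 and 15.5 in lower-series and 31.5, 43 and 33 in higher-series IHCs of the apex, middle and base, and 15 and 14 against 22 and 43 in OHCs of the apex and middle. Only 2 of the 8 basal OHCs and 7 of the 19 basal IHCs are of the higher series, so the base could be compared within a series only between the 6 OHCs and 12 IHCs of the lower one.

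HSP90 genes made up the largest share of chaperone counts in every group. Their percentage of the summed CPM of the 80 genes was 49.1, 41.2 and 46.2 in apical, middle and basal IHCs and 32.4 and 24.2 in apical and middle OHCs. HSP70 genes followed with 19 to 27.7% in IHCs and 23.7 and 22.3% in those OHCs. The DNAJC genes held 8.79, 9.73 and 6.06% in IHCs but 16.9 and 21.1% in apical and middle OHCs, and HSP110 genes 9.5, 8.75 and 5.11% against 14.4 and 13.5%. In these pooled counts apical and middle OHCs thus gave a smaller share to HSP90 and a larger one to DNAJC and HSP110 than any IHC group. For HSP110 in middle OHCs this rests largely on 1 cell, which held 55.2% of the family's counts there. The median middle OHC had 81.9 CPM of HSP110, against 699, 613 and 62.3 CPM in apical, middle and basal IHCs. Basal OHCs stood apart, with 73.3% in HSP90, 2.31% in HSP70 and 0.0196% in HSP110.

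**Figure D1:**
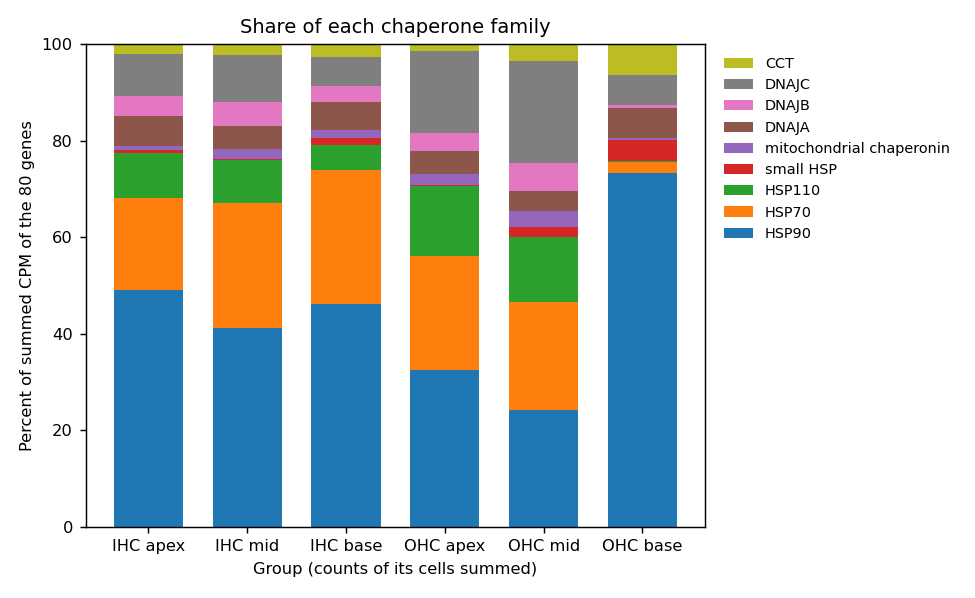
Percent of the summed CPM of the 80 chaperone genes (vertical axis) held by each family in the counts of each group's cells, 1 stacked bar per group of IHCs or OHCs. HSP90 takes 49.1, 41.2 and 46.2% in IHCs, 32.4 and 24.2% in apical and middle OHCs and 73.3% in basal OHCs.

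Hsp90aa1 (chr12:110690605-110702728, minus strand, GRCm38), the inducible cytosolic HSP90, was the highest or the next highest of the 80 genes per kilobase in every group but basal OHCs. Its pooled level was 3085, 2815 and 1797 CPM in apical, middle and basal IHCs and 2301, 778 and 388 CPM in apical, middle and basal OHCs. Lowest, median and highest single IHCs had 20.7, 3136 and 8380.1 CPM in the apex, 7.17, 1667 and 12278 CPM in the middle, and 1.34, 1152 and 5517 CPM in the base. Single OHCs had 49.9, 1657 and 5220.4 CPM in the apex, 0, 860.4 and 5847 CPM in the middle, and 0.506, 232 and 5981 CPM in the base. The cells of all 6 groups overlapped, every IHC had reads, and the highest medians were in the apex of both types. Its 95% Poisson interval in apical IHCs was 3076 to 3094 CPM, and here as elsewhere such intervals cover counting error only and were far narrower than the range over cells. Of its windows of 43 bases, the read length in the labels, 48.8% also occur in transcripts of other genes, mostly the pseudogene Gm12346, and how reads from such windows were counted is not given in the labels.

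Hsp90ab1 (chr17:45567775-45573271, minus strand), the constitutive cytosolic HSP90, had 1829.8, 1165 and 2479 CPM in apical, middle and basal IHCs and 1279.9, 482 and 7718 CPM in apical, middle and basal OHCs. Lowest, median and highest single IHCs had 14.1, 1506 and 5354 CPM in the apex, 0.684, 704 and 8006 CPM in the middle, and 24.3, 779 and 16060.3 CPM in the base. Single OHCs had 6.27, 329 and 5561 CPM in the apex, 0, 481 and 10158 CPM in the middle, and 0, 2457 and 10152 CPM in the base. Basal OHCs were the highest in both the pooled value and the median, while their range overlapped all others. Within basal IHCs the median was 2802 CPM in the 12 lower-series and 385 CPM in the 7 higher-series cells. Per kilobase of exon, Hsp90aa1 was above Hsp90ab1 in 23 of 34, 25 of 34 and 10 of 19 IHCs and in 13 of 21 and 16 of 23 apical and middle OHCs, but in 1 of 8 basal OHCs. Hsp90b1, the HSP90 of the ER, had 799, 413 and 709 in IHCs and 729.9, 114.4 and 273 in OHCs (CPM, apex, middle and base), lowest in middle OHCs.

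In the middle of the cochlea all 3 HSP90 genes were at least 2-fold lower in OHCs than in IHCs, with differences of -1.85 for Hsp90aa1, -1.84 for Hsp90b1 and -1.27 for Hsp90ab1 on the scale of log2(CPM + 1). All 3 were steady calls, meaning that the sign was the same in the equal-weight mean of the cells, after leaving out each group's deepest cell, and within each title series. A steady call concerns the sign and not the size. In the higher series alone none of the 3 reached 2-fold, with -0.47, -0.86 and -0.27 in the same order, against -2.99, -5.04 and -2.64 in the lower series. With equal weight per cell the differences were -1.08, -0.84 and -0.17, and those of the cell medians -0.95, -5.07 and -0.55. Among all 15004 genes tested there, 29.7% were at least 2-fold lower and 19.4% were steady calls lower in OHCs. In the apex none of the 3 reached 2-fold, with -0.42, -0.13 and -0.52 in the same order. All 3 were also steady calls lower in middle than in apical OHCs (-1.56, -2.66 and -1.41), where 31.3% of all genes were 2-fold lower and 13.4% steady; both comparisons share the middle OHCs. Hair cell markers were also low in this group, with a median of 443 CPM per cell against 2634 in middle IHCs and 3808 in apical OHCs, and its part in these differences was not tested. In the cells with hair cell markers the OHC against IHC differences of the middle were -1.91, -1.74 and -1.28.

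**Figure D2:**
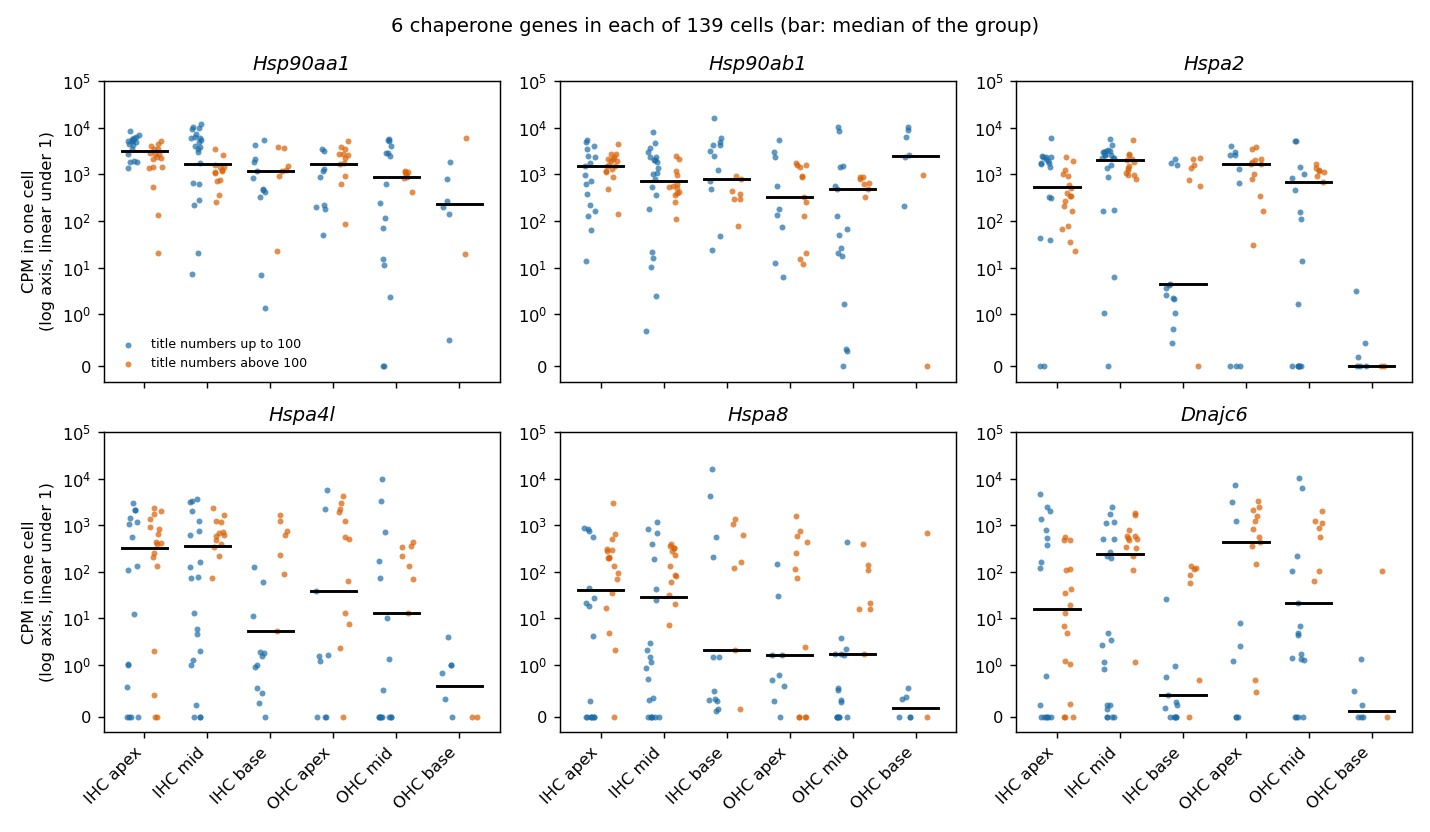
CPM of 6 chaperone genes in each of the 139 cells (log axis, linear under 1), by group, with lower title numbers in blue and higher ones in orange and a bar at each group's median. Hspa2 and Hspa4l lie at or under 3.9 CPM in every basal OHC, and most genes are split within a group between cells near 0 and cells above 100 CPM.

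Per kilobase, Hspa2 was above the housekeeping Hspa8 in most single hair cells of every group but basal OHCs. Hspa2 (chr12:76404176-76406938, plus strand), best known for its role in male germ cells, had 1099, 1986 and 855 CPM in apical, middle and basal IHCs and 1958, 800.4 and 0.647 CPM in apical, middle and basal OHCs. Lowest, median and highest single IHCs had 0, 546 and 6056 CPM in the apex, 0, 2066 and 5822 CPM in the middle, and 0, 4.4 and 2188 CPM in the base. Single OHCs had 0, 1663 and 4068 CPM in the apex, 0, 682 and 5283 CPM in the middle, and 0, 0 and 3.12 CPM in the base. The apical and middle groups overlapped throughout, basal IHCs were split into cells under 5 CPM and cells above 500 CPM, and no basal OHC exceeded 3.12 CPM. At least 100 CPM was reached by 3 of 12 lower-series and 6 of 7 higher-series basal IHCs, with medians of 3.15 and 1362 CPM, and the part of the series in this split was not tested. None of the 43-base windows of Hspa2 occurs in another annotated transcript.

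Hspa8 (chr9:40800984-40810087, plus strand), the constitutive HSC70 that also uncoats clathrin vesicles, had 293, 152 and 1731 CPM in apical, middle and basal IHCs and 251, 65.2 and 85 CPM in apical, middle and basal OHCs. Its cell medians were 40.5, 28.4 and 2.12 CPM in IHCs and 1.66, 1.69 and 0.169 CPM in OHCs, and 1 basal IHC at 15715 CPM held 76.7% of that group's Hspa8 counts. Per kilobase, Hspa2 pooled to 415, 751 and 323 CPM in IHCs against 68.1, 35.3 and 403 for Hspa8, and the basal order was set by the 1 high cell. Cell by cell, Hspa2 was above Hspa8 in 29 of 34, 32 of 34 and 15 of 19 IHCs, in 17 of 21 apical and 17 of 23 middle OHCs, and in 2 of 8 basal OHCs. The order held in both series, for example in 19 of 21 lower-series and 13 of 13 higher-series middle IHCs. 41.2% of the 43-base windows of Hspa8 occur in other transcripts, and how reads from such windows were counted is not given. Both genes were steady calls lower in OHCs in the middle, with log2 differences of -1.31 for Hspa2 and -1.21 for Hspa8, and in the apex neither was (0.83 and -0.22).

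Hspa5, the HSP70 of the ER lumen (BiP), had 638, 325 and 319.8 CPM in apical, middle and basal IHCs and 841, 201 and 38.8 CPM in apical, middle and basal OHCs. Single IHCs reached 3827, 1663 and 748 CPM, with medians of 325, 81.3 and 121.00, and OHC medians were 143, 5.16 and 0.253 CPM. Its median within the lower series was under 4 CPM in every IHC group and between 342 and 537 CPM in the higher series. Hspa2 was above Hspa5 per kilobase in 28 of 34, 32 of 34 and 15 of 19 IHCs.

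The heat-inducible HSP70 genes were at or near 0. Hspa1a had reads in 2 of 34 apical, 0 of 34 middle and 1 of 19 basal IHCs and in 1 apical, 1 middle and 0 basal OHCs, with 0.465 CPM (95% interval 0.362 to 0.589) as its highest pooled level. In middle IHCs it had 0 counts, where 3 counts would be 0.0135 CPM. Hspa1b had 0.0202, 3.92 and 1.68 in IHCs and 0.179, 5.38 and 0.0498 in OHCs (CPM, apex, middle and base), from 6 of 34 middle IHCs and 5 of 23 middle OHCs, and its highest single cell had 74 CPM. 67.8% of the 43-base windows of Hspa1a and 64.2% of those of Hspa1b recur in other genes, mostly in each other, and how such reads were counted is not given. Hspa1l, their testis-enriched neighbour, had 13.3 CPM in apical OHCs, of which 1 cell held 100%.

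Among the other HSP70 genes, Hspa9, the mitochondrial member, had 46.2, 156 and 32 in IHCs and 27.1, 97.7 and 0.349 in OHCs (CPM), highest in the middle of both types. It was a steady call higher in the middle than in the apex in IHCs (1.73) and in OHCs (1.81). Hspa14, a ribosome-associated member, had 85, 5.84 and 44.8 in IHCs and 63.1, 0.677 and 0 in OHCs, and Hspa13, a member of microsomes, 16.9, 1.66 and 1.69 in IHCs and 0.0398, 69.7 and 1.05 in OHCs, where 1 middle OHC held 96.9% of its group's counts. The distant members Hspa12a and Hspa12b had 22.3, 140.4 and 5.68 in IHCs and 1.45, 4.87 and 10 in OHCs and 8.74, 0.348 and 0.0683 in IHCs and 0.746, 19 and 128.3 in OHCs. In middle IHCs 1 cell held 76.9% of the Hspa12a counts, and in basal OHCs 1 cell held 100% of the Hspa12b counts.

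The HSP110 genes, nucleotide exchange factors of HSP70, had most of their summed CPM from Hspa4l in every group but basal OHCs. Hspa4l (chr3:40744495-40796103, plus strand) had 837, 798 and 338 CPM in apical, middle and basal IHCs and 1540.4, 588 and 1.05 CPM in apical, middle and basal OHCs. Lowest, median and highest single IHCs had 0, 322 and 3043 CPM in the apex, 0, 366 and 3614 CPM in the middle, and 0, 5.31 and 1646 CPM in the base. Single OHCs had 0, 38.1 and 5548 CPM in the apex, 0, 12.8 and 9542 CPM in the middle, and 0, 0.592 and 3.9 CPM in the base. Apical OHCs had the highest pooled level but a lower median than apical and middle IHCs, and all groups overlapped down to 0. In middle OHCs 1 cell held 71.7% of the Hspa4l counts, and without that cell the pooled level was 176 CPM. In the higher series alone the medians were 412, 604 and 613 CPM in IHCs and 538 and 215 CPM in apical and middle OHCs. Hspa4 had 184, 133.6 and 186 in IHCs and 356, 174 and 0.598 in OHCs (CPM), so it too was lowest in basal OHCs. Per kilobase, Hspa4l pooled to 71, 67.7 and 28.7 CPM in IHCs against 33.3, 24.2 and 33.7 for Hspa4. In OHCs it pooled to 130.6, 49.8 and 0.0887 against 64.4, 31.4 and 0.108. Cell by cell, Hspa4l was above Hspa4 in 22, 21 and 9 IHCs and below it in 8, 13 and 10. In OHCs it was above in 10, 7 and 4 cells and below in 8, 11 and 2.

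Hsph1, the most heat-responsive HSP110, did not follow them. It had 85.5, 1.26 and 27.1 in IHCs and 11.3, 3.97 and 0.598 in OHCs (CPM), and 1 apical IHC with 884 CPM held 59% of that group's counts, while another, with fewer counts in total, had 2306 CPM. Reads were found in 21 of 34 apical IHCs and 4 of 21 apical OHCs, and the difference of -2.81 (log2) between these groups was a steady call. Hsph1 carries the longer heat shock element printed above. The 8 immediate early genes, which dissociation of tissue can induce, summed to 784, 831 and 345 CPM in IHCs and 39.4, 146 and 130.4 CPM in OHCs. They reached 5 CPM for 7, 7 and 6 genes in IHCs and for 2, 5 and 2 in OHCs, with Atf3 at 0 in basal IHCs and Atf3 and Ier2 at 0 in basal OHCs. The 8 supporting cell markers summed to 1629, 1286 and 516 CPM in IHCs and 113.9, 334 and 113.4 CPM in OHCs, with none at 0 in any group and 6, 7 and 4 in IHCs and 4, 6 and 5 in OHCs at 5 CPM or more. Both sums thus differed between the cell types in the direction of Hsph1 in the apex, and their part in its difference and in those of the other stress genes was not tested.

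Of the 9 small heat shock proteins, 3 passed 5 CPM. Cryab, alpha B-crystallin, had 42.3, 23.3 and 16 CPM in apical, middle and basal IHCs and 18.1, 84.9 and 369.5 CPM in apical, middle and basal OHCs. Its exons overlap those of Hspb2 on the opposite strand, and the strand setting of the counting is not given. Reads were found in 13 of 34, 13 of 34 and 7 of 19 IHCs and in 5 of 21, 11 of 23 and 5 of 8 OHCs, and the median cell was at 0 in every group but basal OHCs (1.23 CPM). In the middle it was higher in OHCs than IHCs by 1.82 (log2), a steady call, with a higher-series median of 179.7 CPM in OHCs and 28 CPM in IHCs. In basal OHCs 1 cell at 1291 CPM held 98.8% of the counts.

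Hspb1, the actin-associated HSP25, had 6.18, 8.75 and 148 in IHCs and 18.9, 32.9 and 46.8 in OHCs (CPM), and in basal IHCs 1 cell at 2005 CPM held 91.6% of the counts. It too was a steady call higher in middle OHCs than in middle IHCs (1.80). In the lower series no middle cell of either type exceeded 2.76 CPM of Hspb1 or 7.17 CPM of Cryab. The sign of both genes in that series was therefore read from very low values. For Hspb1, 51.9% of the 43-base windows are shared, mostly with the pseudogene Hsp25-ps1. Hspb11, which is better known as a part of the intraflagellar transport complex than as a chaperone, had 3.16 to 5.58 CPM outside basal OHCs. The muscle members Hspb2, Hspb3, Hspb6 and Hspb7, the testis gene Hspb9 and the autophagy-linked Hspb8 did not reach 5 CPM in any group.

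Hspd1 (HSP60) and its cap Hspe1 (HSP10), which share a promoter region, were both present at intermediate levels. Hspd1 had 69.4, 154 and 152 in IHCs and 221, 127.7 and 24.3 in OHCs (CPM) and Hspe1 37.3, 51.1 and 19.5 in IHCs and 65.1, 57.2 and 34 in OHCs. Per kilobase they were close in apical IHCs (26.3 and 25.3 CPM) and apart in basal IHCs (57.6 and 13.2). In single cells they were often seen without each other: of 34 apical IHCs, 11 had reads of both, 8 of Hspd1 only and 6 of Hspe1 only. Of the 43-base windows, 45.35% of those of Hspd1 and 25.28% of those of Hspe1 occur in transcripts of other genes. The exons of the pair also overlap on opposite strands, and how such reads were counted is not given. Hspd1 was a steady call higher in basal than in apical IHCs, by 1.12 (log2), or 0.88 without the cell of each group that held most of its counts, where 26.5% of all genes were 2-fold higher and 14.5% steady.

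Among the J-domain proteins of the DNAJA class, Dnaja1, a cytosolic partner of HSC70, had 517, 219 and 361 in IHCs and 397, 161 and 594 in OHCs (CPM). Cell medians were 116.2, 6.32 and 272 CPM in IHCs and 75.5, 3.39 and 237 in OHCs, and all groups overlapped. Dnaja3, the mitochondrial member, had 155, 83.6 and 224 in IHCs and 66, 27.1 and 114.8 in OHCs and was a steady call lower in OHCs in the apex (-1.22) and in the middle (-1.59). Dnaja2 had 15.2, 208 and 20.4 in IHCs and 145, 32.6 and 0.249 in OHCs: it was a steady call higher in OHCs in the apex (3.17) and lower in the middle (-2.64). In the apex, 28.6% of all genes were at least 2-fold higher and 32.4% lower in OHCs, and 11.7% and 20.5% were steady calls.

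In the DNAJB class, 8 of 13 genes passed 5 CPM, and 2 were steady calls lower in OHCs both in the apex and in the middle. Of all genes tested, 20.5% were steady calls lower in the apex and 19.4% in the middle. The share of all genes steady in both regions was not computed, so the count cannot be read as particular to this class. Dnajb14, a J-protein of the ER membrane, had 139.7, 113.9 and 42.4 in IHCs and 40, 22.9 and 4.28 in OHCs (CPM), with differences of -1.78 in the apex and -2.27 in the middle. Single cells ranged up to 1551, 1223 and 529 CPM in IHCs and 408 and 207 CPM in apical and middle OHCs, and every group overlapped at 0. Dnajb4, a cytosolic partner of HSP70, had 14.2, 25.4 and 36.7 in IHCs and 1.43, 2.26 and 0 in OHCs, with differences of -2.64 and -3.02, but 1 cell held 60.2, 82.3 and 98.8% of its counts in the 3 IHC groups. In basal OHCs Dnajb4 had 0 counts, where 3 counts would be 0.149 CPM.

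Dnajb6, which keeps aggregation-prone proteins soluble, was the highest DNAJB gene per kilobase in apical and middle cells, and its level was 159, 208 and 44.1 in IHCs and 263, 189.5 and 7.87 in OHCs (CPM). It was a steady call lower in basal than in apical IHCs (-1.83), where 31.5% of all genes were 2-fold lower and 19.2% steady. Dnajb12, of the ER membrane, had 55.7, 106.4 and 92.6 in IHCs and 74.4, 19 and 27.4 in OHCs and Dnajb2, enriched in neurons, 77.3, 32 and 62.3 in IHCs and 83.2, 82.1 and 16.6 in OHCs. Dnajb1, the heat-inducible HSP40, had 0.0742, 12 and 14.2 in IHCs and 0.0497, 4.04 and 0.0996 in OHCs: it was absent or nearly so in the apex of both types, and reads were found in 9 of 34 apical, 12 of 34 middle and 12 of 19 basal IHCs. Its difference between basal and apical IHCs was 3.82, a steady call, and between middle and apical IHCs 3.60, where 28.7% of all genes were 2-fold higher and 16.3% steady.

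**Figure D3:**
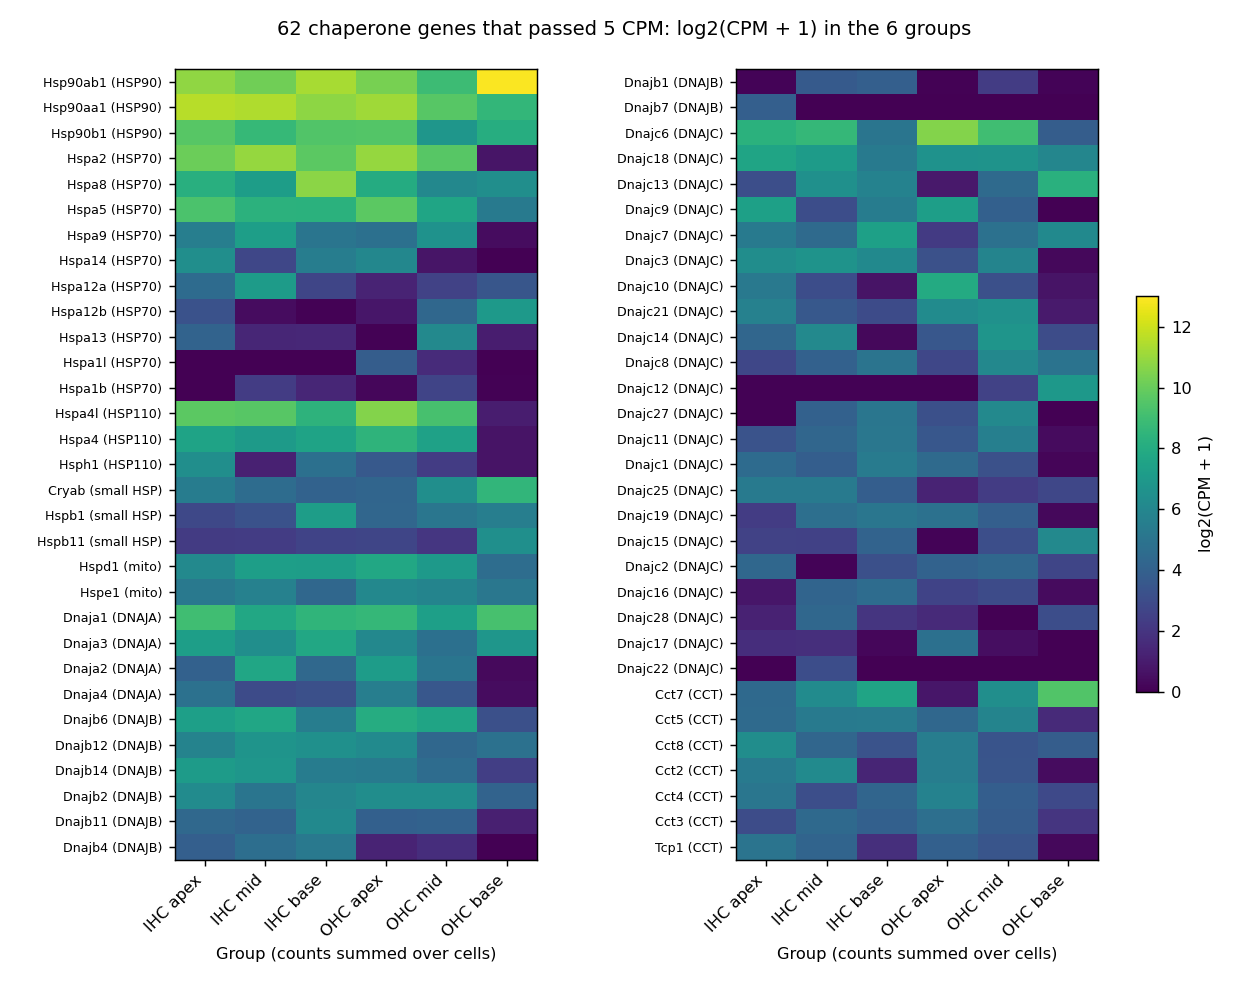
log2(CPM + 1) (colour) of the 62 genes that passed 5 CPM, by gene and family (vertical) in the 6 groups (horizontal), from counts summed over cells. Hsp90aa1, Hsp90ab1, Hspa2 and Hspa4l are bright in most groups, and Hspa2, Hspa4l and Hspa4 are dark in basal OHCs.

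Among the DNAJC class, J-proteins tied to particular tasks, Dnajc6 (chr4:101496648-101642799, plus strand) is auxilin, which recruits HSC70 to strip clathrin from endocytic vesicles. Per kilobase it was the highest of the class in middle IHCs and in apical and middle OHCs, and in apical IHCs Dnajc9 stood above it (70.4 against 53.2 CPM per kilobase). Dnajc6 had 315, 408 and 32.4 CPM in apical, middle and basal IHCs and 1523, 517 and 13.1 CPM in apical, middle and basal OHCs. Lowest, median and highest single IHCs had 0, 16.3 and 4547 CPM in the apex, 0, 239 and 2424 CPM in the middle, and 0, 0.425 and 133.98 CPM in the base. Single OHCs had 0, 426 and 7153 CPM in the apex, 0, 21.7 and 10097 CPM in the middle, and 0, 0.113 and 101.95 CPM in the base. It was lowest in the base of both types, and the apical and middle groups overlapped down to 0. In the apex it was higher in OHCs by 2.27 (log2), a steady call, while in the middle the difference was 0.34. The order of the apical cell medians differed between the series. Among lower-series cells the median OHC, at 2.6 CPM, was below the median IHC, at 119.2 CPM, the reverse of the pooled order. Among higher-series cells the median OHC, at 687 CPM, was above the median IHC, at 12.8 CPM. In IHCs the difference of base against apex was -3.24, also a steady call, with medians of 0.203 and 85.3 CPM in the lower and higher series of the base against 119.2 and 12.8 CPM in the apex. The higher-series medians thus stood in the opposite order to the pooled values, while the difference of counts pooled within that series was -1.46.

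Dnajc3 (P58IPK), a co-chaperone of BiP whose promoter carries the ER stress element printed above, had 80.7, 101.5 and 71.3 in IHCs and 8.38, 56.7 and 0.199 in OHCs (CPM). It was a steady call lower in apical OHCs than in apical IHCs, with a log2 difference of -3.12 and reads in 6 of 21 against 17 of 34 cells, and was -0.83 in the middle. Dnajc10 (ERdj5), an ER disulfide reductase, was by contrast highest in apical OHCs, with 37.2, 7.39 and 0.585 in IHCs and 249.7, 7.96 and 0.598 in OHCs and a steady difference of 2.71 there. Of its counts in apical OHCs 1 cell held 82.5%, and leaving out the cell with most of the counts of each group gave 1.09. Dnajc13, of endosomes, had 7.83, 91.5 and 54 in IHCs and 0.835, 21.6 and 309 in OHCs and was a steady call lower in OHCs in the apex (-2.27) and the middle (-2.03), as was Dnajc25 (-4.07 and -3.01). Dnajc27, a J-protein with a small GTPase domain, was a steady call higher in OHCs in both regions (3.13 and 2.04), from 0.0405 and 15.7 CPM in IHCs to 8.09 and 67.7 CPM in OHCs. In the apex it had reads in 4 of 21 OHCs and 5 of 34 IHCs and 1 OHC held 99% of the counts, and without each group's top cell the differences were 0.087 in the apex and 1.88 in the middle.

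In the middle, OHCs also had steady calls higher for Dnajc2, a factor of the ribosome (0.0948 CPM in IHCs and 19.4 CPM in OHCs), Dnajc8, tied to splicing (15.5 and 65.4 CPM), and Dnajc21, of ribosome assembly (10.9 and 94.8 CPM). Dnajc2 had reads in 7 of 34 middle IHCs and 12 of 23 middle OHCs. Dnajc18 had 193, 142 and 40.7 in IHCs and 97.9, 100.4 and 60.8 in OHCs (CPM) and was a steady call lower in basal than in apical IHCs (-2.22). In that comparison Dnajc16, of the ER, and Dnajc19, of mitochondrial protein import, were steady calls higher (3.80 and 2.76), but 1 basal IHC held 92.2% of the Dnajc19 counts, and the Dnajc19 difference was 0.021 without each group's top cell and -0.42 in cells with hair cell markers. Dnajc7, which links HSP70 and HSP90, had 39.1, 21.4 and 168 in IHCs and 3.55, 27.4 and 70.5 in OHCs, and 1 cell held 91.6% of its counts in basal IHCs and 98.8% in basal OHCs. In the apex it was a steady call lower in OHCs (-3.14), where 1 IHC held 63.9% of the apical IHC counts. Without each group's top cell the apical levels were 14.6 CPM in IHCs and 1.92 CPM in OHCs. Dnajc7 had reads in 18 of 34 apical IHCs and 14 of 21 apical OHCs, with medians of 0.867 and 0.461 CPM.

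Dnajc9, a histone chaperone, had 167, 7.51 and 42.9 in IHCs and 154, 14.8 and 0 in OHCs (CPM), with the highest pooled level in the apex of both types. It had reads in 17 of 34 apical IHCs and 6 of 21 apical OHCs, with medians of 0.125 and 0 CPM. In those groups 1 cell held 49.1 and 47% of the Dnajc9 counts. The pooled difference of -7.27 between basal and apical OHCs was a steady call. In the ER, Dnajb11, a co-chaperone of BiP, had 19.9, 16.9 and 70.4 in IHCs and 14.8, 15.8 and 1.24 in OHCs, with 92% of the basal IHC counts in 1 cell, and Dnajc1 22, 13.8 and 41 in IHCs and 21.8, 8.43 and 0.149 in OHCs. Dnaja4 had 27.6, 6.82 and 7.9 in IHCs and 45.9, 10.7 and 0.349 in OHCs and Dnajc14 18.8, 67.8 and 0.213 in IHCs and 10.4, 108.04 and 7.07 in OHCs, where 1 cell held 87% of the counts of middle IHCs and 94.8% of those of middle OHCs. The mitochondrial Dnajc11 had 9.17, 18.5 and 34.1 in IHCs and 10.6, 47.5 and 0.299 in OHCs and Dnajc15 4.88, 4.69 and 16.8 in IHCs and 0.0895, 7.82 and 68 in OHCs. Among the remaining J-domain genes Dnajc12 reached 122.1 CPM in basal OHCs, Dnajc17 27 CPM in apical OHCs, and Dnajb7 14.5, Dnajc28 19 and Dnajc22 7.46 CPM in apical or middle IHCs. In those groups 1 cell held between 72.4 and 100% of the counts of each.

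The CCT ring, or TRiC, folds actin and tubulin and is built from equal numbers of its subunits. Of its subunit genes, 7 were in the set, since the Cct6a line is annotated in GENCODE M21 as a processed transcript and not as protein coding, whereas the testis forms Cct6b and Cct8l1 were under 5 CPM. The transcripts of the ring were far from equal within any group. Per kilobase of exon, the highest subunit exceeded the lowest by 23.9-fold in apical IHCs (Cct8 at 26.6 and Cct3 at 1.11 CPM per kilobase), 15.7-fold in middle IHCs (Cct2 and Cct4) and 59.9-fold in basal IHCs (Cct7 and Tcp1). In OHCs the ratio was 172-fold in the apex (Cct2 and Cct7), 10.8-fold in the middle (Cct5 and Tcp1) and 2684-fold in the base (Cct7 and Tcp1), where Tcp1 had 4 counts. Cct8, Cct2, Cct7 and Cct5 were each the highest in at least 1 group.

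Single cells showed few subunits at a time. The median cell had reads of 2, 4 and 4 of the 7 genes in apical, middle and basal IHCs and of 2, 3 and 2.5 in OHCs, and all 7 were found in 6 middle IHCs, 2 middle OHCs and no cell of the other groups. After thinning the medians were 1, 2 and 2 in IHCs and 1, 3 and 2 in OHCs. Cct7 had 20.4, 76 and 194 in IHCs and 0.696, 84.7 and 721 in OHCs (CPM), with reads in 16 of 19 basal IHCs and 12 of 21 apical OHCs, and was a steady call higher in basal than in apical IHCs (3.19), while Cct8, Cct2 and Tcp1 were steady calls lower there (-3.06, -4.00 and -3.26). In thinned cells the median number of subunits with reads was 1, 1 and 1 in lower-series and 2.5, 5 and 3 in higher-series IHCs, and 1 and 1 against 1 and 6 in apical and middle OHCs. The summed CCT level of the median cell was 4.97, 4.08 and 1.7 CPM in lower-series and 182, 599 and 559 CPM in higher-series IHCs, and its cause was not tested.

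**Figure D4:**
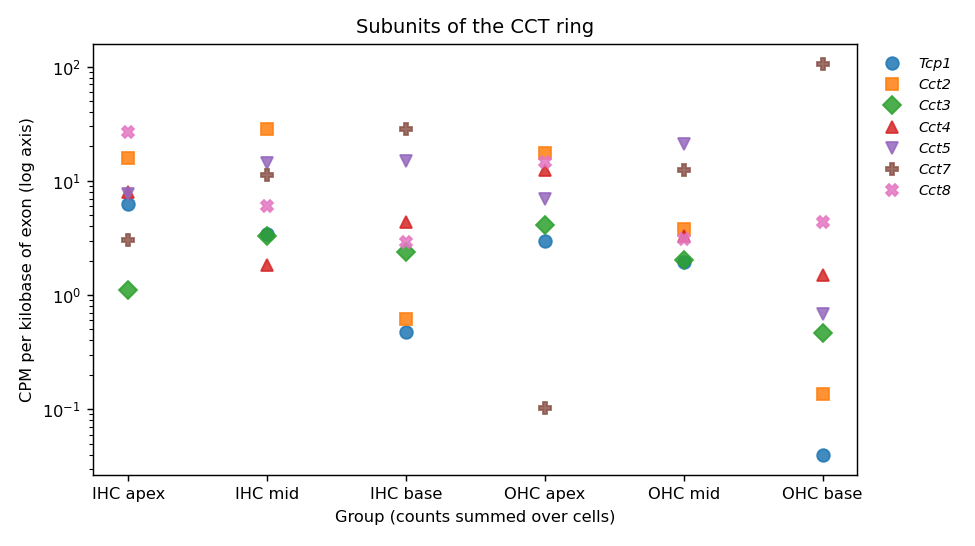
Pooled level of the 7 CCT ring genes in CPM per kilobase of exon (log axis) in each of the 6 groups, 1 symbol per gene. The spread from lowest to highest gene is 10.8-fold in middle OHCs and 172-fold in apical OHCs, and the order of the genes differs between groups.

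Counts of a group often came from 1 cell. Of the members at 5 CPM or more, 11 of 50, 11 of 51 and 25 of 49 in apical, middle and basal IHCs and 26 of 47, 22 of 49 and 27 of 31 in apical, middle and basal OHCs had at least 50% of their counts in a single cell. The median share of the top cell was 38.5, 31 and 50.1% in IHCs and 64.2, 47.3 and 96.5% in OHCs. A pooled difference in these groups can therefore be that of 1 cell, and a lower pooled level cannot tell fewer expressing cells from less RNA per cell. Leaving out, gene by gene, the cell of each group with most of its counts kept 3 of 4 steady calls higher in apical OHCs and 12 of 12 lower at 2-fold or more, the exception being Dnajc27. In the middle 8 of 10 and 17 of 18 were kept, and the exceptions were Hspa13 (0.84), Dnajc12 (0.082) and Dnajc17 (-0.90). In basal against apical IHCs 7 of 10 and 15 of 16 were kept, and the exceptions were Hspa8 (0.74), Hspd1, Dnajc19 and Hsph1 (-0.78). Of the calls in basal OHCs, 2 of 8 higher and 28 of 31 lower were kept against basal IHCs and 6 of 12 and 19 of 23 against apical OHCs. Over all genes tested, 823 of 1758 higher and 2428 of 3075 lower were kept in the apex and 902 of 1510 and 2442 of 2911 in the middle. In basal against apical IHCs 1429 of 2181 and 2250 of 2885 of all genes were kept. For basal OHCs these were 712 of 1621 and 4106 of 5765 against basal IHCs and 816 of 1855 and 2537 of 4256 against apical OHCs.

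In the apex and middle the 62 genes were split between higher and lower in OHCs. In the apex, 11 genes were at least 2-fold higher and 16 lower in OHCs, with a median difference of -0.022 (log2) against -0.019 over all genes tested, and 4 and 12 were steady. In the middle, 13 were higher and 20 lower, with a median of -0.36 against -0.069, and 10 and 18 were steady; 20.7% of all genes were 2-fold higher there and 10.1% steady. As a percentage of the 62 genes the 2-fold counts are 17.7 and 25.8 in the apex, under the 28.6 and 32.4% of all genes. In the middle they are 21 and 32.3, near the 20.7 and 29.7% of all genes. The steady calls were 6.45 and 19.4% of the 62 genes in the apex, against 11.7 and 20.5% of all genes. In the middle the steady calls were 16.1 and 29%, above the 10.1 and 19.4% of all genes. Over the mean of apex and middle, 9 genes were higher and 16 lower (background 22.9 and 30.3%), with a median of -0.11 against -0.13 over all genes.

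With the base included, the mean over the 3 regions had 6 genes higher and 31 lower in OHCs, against 17.3 and 39.2% of all genes, and a median of -1.0 against -0.59. Steady calls numbered 4 and 21 (background 8.88 and 26.7%). Hsp90aa1 was lower in OHCs by this mean (-1.50) and without the base (-1.14), as were Dnajb14 (-2.36 and -2.02) and Dnajc3 (-3.29 and -1.98). Hspa4l was lower by the mean of 3 regions (-2.31) but 0.22 over the apex and middle, and Hspa2 was -3.17 and -0.24. Scaling by medians of ratios in place of TMM moved the median of all genes from -0.59 to -0.26 and the counts of members to 11 higher and 17 lower.

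In the base alone, 10 genes were higher and 37 lower in OHCs (8 and 31 steady), and 16.1 and 48.9% of all genes were so (10.8 and 38.4% steady), with a median of -1.45 against -0.89. All 3 HSP110 genes and 7 of 8 DNAJB genes were lower. The median of the members was -0.39 within the lower series (all genes -0.083), -0.18 from the medians of the cells (all genes 0) and -3.39 in cells with hair cell markers, of which the OHC side is 1 cell (all genes -2.0). Basal OHCs against apical OHCs gave 14 higher and 38 lower (12 and 23 steady; background 17.4 and 47.6%, steady 12.4 and 28.4%), a median of -2.24 against -0.72. The steady differences were led by Hspa2 (-10.22), Hspa4l (-9.56) and Hspa4 (-7.80), whereas Hsp90ab1 was higher (2.59). Within the lower series, which holds 6 of the 8 basal OHCs, 15 genes were lower in this comparison and the median was 0. Both comparisons use the same basal OHCs, of which 1 of 8 had hair cell markers, and a low level of hair cell chaperones there cannot be told apart from a low content of hair cell RNA.

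In IHCs, base against apex gave 16 genes higher and 22 lower, with a median of -0.24 against -0.022. These are 25.8 and 35.5% of the 62 genes, near the 26.5 and 31.5% of all genes. Steady calls numbered 10 and 16, or 16.1 and 25.8%, against 14.5 and 19.2% of all genes. The 7 mitochondrial members (Hspd1, Hspe1, Hspa9, Dnaja3, Dnajc11, Dnajc15 and Dnajc19) had 4 higher (Hspd1, Dnajc11, Dnajc15 and Dnajc19) and 0 lower, with a median of 1.12, against 26.5 and 31.5% of all genes and their median of -0.022. Of those 4 mitochondrial genes, Hspd1 and Dnajc19 were not 2-fold higher without each group's top cell. A single basal IHC held 92.2% of the Dnajc19 counts, and 1 held 50.1% of the Dnajc15 counts. The 7 tested ER members had 1 higher and 2 lower, with a median of -0.18. Of 11 tested HSF1 targets among the members 5 were higher (Hspa8, Hspb1, Hspd1, Dnajb1 and Hspa1b) and 2 lower (Hsph1 and Cryab), but a single basal IHC, a different one for each gene, held 76.7% of the counts of Hspa8, 91.6% of Hspb1, 99.1% of Hspa1b and 53.5% of Dnajb1. The differences of these targets ranged from -1.62 for Hsph1 to 4.38 for Hspb1.

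**Figure D5:**
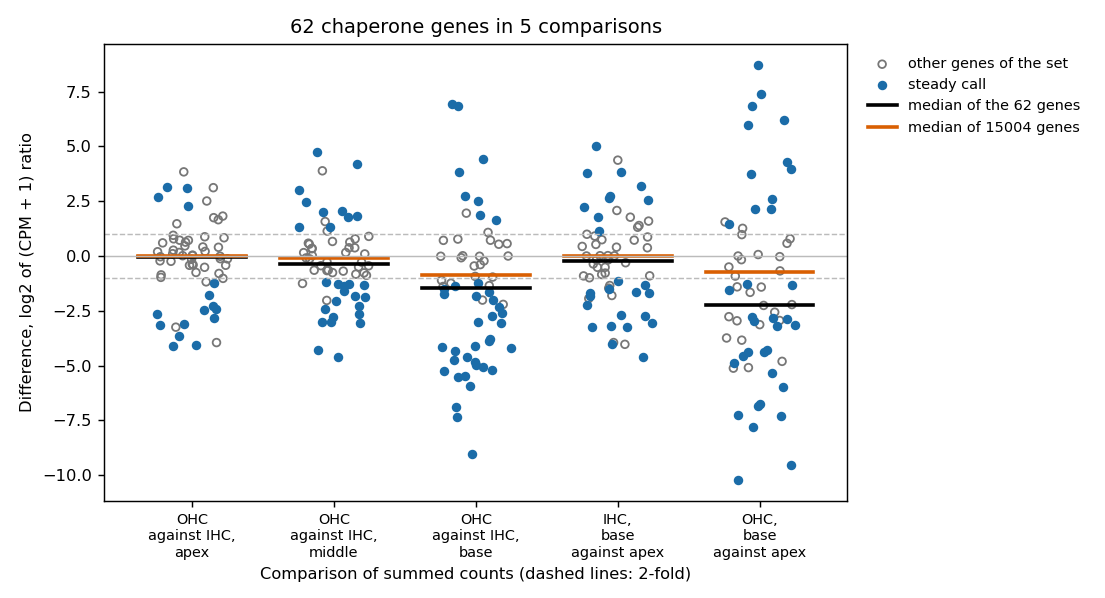
Difference of log2(CPM + 1) (vertical axis) of each of the 62 genes in 5 comparisons, filled where the call was steady, with the median of the 62 genes in black and of 15004 genes in orange and dashed lines at 2-fold. The medians of the members and of all genes are -0.022 and -0.019 in the apex and lie furthest apart in basal against apical OHCs, where they are -2.24 and -0.72.

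The partners of the chaperones were read from a list of 45 heat shock factors and co-chaperones, of which 43 passed the filter. In the mean of 3 regions 8 were at least 2-fold higher and 10 lower in OHCs (median -0.33), in the apex 17 and 6 (0.45), and in the middle 10 and 15 (-0.32). All genes tested had 17.3 and 39.2% (median -0.59) in the mean, 28.6 and 32.4% (-0.019) in the apex and 20.7 and 29.7% (-0.069) in the middle. Steady calls of the list numbered 5 and 7 in the mean, 6 and 5 in the apex and 3 and 11 in the middle. Of all genes 8.88 and 26.7%, 11.7 and 20.5%, and 10.1 and 19.4% were steady in the same order. St13 (HIP), which steadies ADP-bound HSC70, had 2985, 2687 and 2648 CPM in IHCs and 5609.9, 1879 and 17586 in OHCs. Ptges3 (p23), the co-chaperone of the closed HSP90 dimer, had 763, 1185 and 965 CPM in IHCs and 475, 313 and 1280.3 in OHCs. Stip1 (HOP), which joins HSP70 to HSP90, had 98.7, 118.3 and 21.8 against 103.8, 56.5 and 44.4 CPM. Of the heat shock factors, Hsf2 had 237 to 389 CPM and Hsf1 15.4 to 33.2 CPM in IHCs, and their levels were not set against each other per length.

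Of 12 ER folding genes outside the set, 1 was 2-fold higher and 6 lower in OHCs by the mean of 3 regions (median -1.08), 2 and 6 in the apex (-0.95) and 1 and 2 in the middle (-0.39), to be read against the same percentages and medians of all genes. Canx (calnexin) had 1919, 2139 and 572 CPM in IHCs and 1606, 1628 and 1414 CPM in OHCs, and Calr (calreticulin) had 319.7, 316 and 328 against 371, 435 and 171 CPM.

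The 18 genes under 5 CPM were Hspa1a, Hspb2, Hspb3, Hspb6, Hspb7, Hspb8, Hspb9, Dnajb3, Dnajb5, Dnajb8, Dnajb9, Dnajb13, Dnajc4, Dnajc5g, Dnajc24, Dnajc30, Cct6b and Cct8l1. Their highest group level was 3.48 CPM, for Dnajc4. They include the heat-inducible Hspa1a, the ER stress gene Dnajb9 (ERdj4) and several genes known from testis or muscle.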

How the data were processed

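Expression was measured in 139 single cells of 6 labelled groups. The values are raw read counts of each gene in each cell, as deposited by the authors, made with Trimmomatic, HISAT2 and featureCounts of Subread 1.4.6 on GRCm38 (mm10), per the submitters' processing notes; trimming settings, strand, overlap and multiple-mapping rules are not given. Identifiers were matched to GENCODE M21 for 55154 of 55335 lines, and lines without a symbol held 0.00885% of counts. Members, lists and tests were chosen with earlier results of these data known.

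Counts were summed per group, scaled by TMM (edgeR 4.0.16, R 4.3.3) and given as CPM, with exact 95% Poisson intervals; differences are of log2(CPM + 1). A gene was kept at 5 CPM or more in at least 1 group (15004 genes). A call needed a 2-fold difference, and a steady call also the same sign in the equal-weight mean of cells, with each group's deepest cell left out and in each title series with at least 5 cells per group. Cells were thinned to 582635 counts, which kept 125 cells. Groups were taken from the region label and title numbers from the titles. No test between groups was made because each group is 1 sample with no animal named. Rankings of genes marked as per kilobase used merged exons. Family shares and the choice of the 3 highest genes of each family used CPM with no correction for length. Scripts were tested on simulated data, and no columns were identical.

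Named in full were the 3 highest genes of each family, up to 5 steady calls per direction and comparison with at least 10 CPM and reads in at least 50% of cells of the higher group, and a preset list of well-known members, 41 in all. In all, 11 planned and 4 added alternatives were run, the latter chosen after seeing the data (medians of cells, cells with hair cell markers, apex and middle only, and leaving out for each gene the cell of each group with most of its counts). Python 3.11.15, numpy 2.4.6, pandas 2.3.3, scipy 1.17.1 and matplotlib 3.10.9 were used.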

Additional observations from a re-analysis of the deposited data

Results flagged for a closer look

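In the 8 basal OHCs, 17 of the 33 family sums and genes examined had 1 cell far above the other 7, by the ratio of its gap to the group's range. Chance gives this in about 1 in 20 groups of normally spread values, and all values come from the same 8 cells, so they are not independent. The highest cell was not the same for every gene. For each it had 1291 CPM of Cryab and 1291.1 CPM summed over the small heat shock proteins, and 106.3 CPM of Hspb1 and 299.9 CPM of Hspb11. Among HSP90 and HSP70 genes the highest cell of each had 5981 CPM of Hsp90aa1 and 685 CPM of Hspa8. Among J-domain genes the highest cell of each had 61.9 CPM of Dnajb12, 118.99 CPM of Dnajb2, 62.9 CPM of Dnajb6, 45.5 CPM of Dnajc2, 101.95 CPM of Dnajc6, 564 CPM of Dnajc7, 211 CPM of Dnajc8 and 574 CPM of Dnajc18. For the chaperonins the values were 47.2 CPM of Cct8, 53.7 CPM of Hspd1 and 164 CPM of Hspe1.

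In 12 of the 62 genes basal and apical cells were at least 2-fold apart in opposite directions in IHCs and OHCs, and for 6 of them both calls were steady. The share of all genes with opposite calls was not computed, so the count cannot be read as particular to the members. Of all genes, 26.5% were 2-fold higher and 31.5% lower in IHCs, and 17.4 and 47.6% in OHCs. Among the 12 genes, OHC minus IHC, the differences of log2(CPM + 1) were -7.33 for Dnajc19 and -4.11 for Hspa8. Neither was tested, as each group is 1 sample. Without the cell of each group that held most of the counts, base against apex was 0.02 in IHCs and -0.42 in OHCs for Dnajc19 and 0.74 and -6.85 for Hspa8.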

How the results depend on the processing

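Pooled counts depend on deep and on single cells, and the members as a group depend on the scaling, the title series and the basal OHCs. For the mean OHC against IHC difference over 3 regions (6 members higher, 31 lower, median -1.0), the median was -0.60 with equal weight per cell, -0.53 with scaling by medians of ratios (11 higher, 17 lower), -1.02 with totals only, -0.48 with a pseudocount of 5 CPM (20 lower), -1.01 without the deepest cells, -1.36 in lower and -0.070 in higher title numbers (11 higher, 14 lower), -0.78 after thinning, -1.02 without mitochondrial genes and CT010467.1, -0.078 over medians of cells (0 higher, 9 lower), -1.17 in cells with hair cell markers (3 higher), -0.11 over apex and middle (16 lower), -0.45 with no filter and -1.03 with a filter of 20 CPM. For IHCs of base against apex (16 higher, 22 lower, median -0.24) the same order gave -0.018, -0.10, -0.35, -0.23, -0.35, -0.050, -0.35 and -0.018, then 0 over medians of cells (4 higher, 8 lower), -0.23 in cells with hair cell markers, -0.015 with no filter and -0.36 at 20 CPM. For OHCs of base against apex (14 higher, 38 lower, median -2.24) the values were -1.15 with equal weight, -1.66 with medians of ratios, -2.50 with totals only, -1.42 with the larger pseudocount, -2.38 without the deepest cells, 0 in lower title numbers (15 lower), -1.52 after thinning, -2.27 without mitochondrial genes, 0 over medians of cells (4 higher, 10 lower), -3.40 in the 1 basal cell with hair cell markers (5 higher), -0.63 with no filter and -2.77 at 20 CPM. Without the top cell of each gene the 3 medians were -1.11 (1 higher), -0.55 and -1.66 (6 higher). The cause of these changes was not tested.

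Called genes that changed sign were few. In cells with hair cell markers they were Cryab (-1.15 in the mean, -4.20 in OHCs of base against apex), Dnajc19 in IHCs (-0.42), and Dnajc7 (-0.60), Dnajc8 (-2.75) and Hspa12a (-1.24) in OHCs. With equal weight they were Cryab in IHCs (0.13) and Hsp90aa1 in OHCs (0.31), over medians of cells Dnajb14 (0.29) and Hspa8 (-3.73) in IHCs, and without the deepest cells Hspb1 in OHCs (-4.42). Lower title numbers turned Hspa1b in IHCs (-0.071) and Hspd1 in OHCs (4.12), higher ones Hspa2 (0.36) and Hspa5 (0.34) in the mean and Hspb1 in IHCs (-1.39), and leaving out the base turned Hspa4l in the mean (0.22). Medians of ratios moved the median of all genes from -0.59 to -0.26 in the mean and from -0.72 to -0.38 in OHCs. Without the top cell of each gene Cryab in the mean was -0.46, and in OHCs of base against apex Dnajc7 was -0.60 and Hspb1 -3.48. No paired analysis was possible because the labels give no animal and no test was run.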
